A study of Mus musculus with 8 samples.

Results

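The genes described here are the Zbtb family members other than Zbtb46, whose transcripts were counted in group 3 innate lymphoid cells (ILC3s) that kept or lacked Zbtb46. Members were all rows of the count table whose mouse symbol is Zbtb followed by digits and an optional letter, which gave 39 of 27179 rows, with Zbtb46 itself left out. The cells were CCR6+ ILC3s, the subset that includes lymphoid tissue inducer cells, taken by sorting from large intestines of C57BL/6 mice as CD127+ CD90-high cells without T, B, NK or myeloid surface markers. The wild type group was 4 Zbtb46f/f mice (replicates 1 to 4), in which both copies are flanked by loxP sites and intact. The Zbtb46 KO group was 4 mice with the same floxed alleles plus a Cre recombinase transgene that is active in ILC3s and also in developing T cells (replicates 5 to 8). The sources used here give neither the age nor the sex of the mice.

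Zbtb proteins pair an N-terminal BTB domain, through which they form dimers and recruit corepressors or the ubiquitin ligase scaffold Cul3, with C-terminal C2H2 zinc fingers that contact DNA. Most members studied act as repressors. Several direct blood cell fate, among them PLZF (Zbtb16) in innate lymphoid precursors, ThPOK (Zbtb7b) in CD4 T cells and Zbtb46 in classical dendritic cells. The design asks what changes in these ILC3s when Zbtb46 is deleted, and the values below show which relatives of Zbtb46 the cells transcribe and whether any was higher without it.

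Library totals ran from 25328231 to 33760743 counts, so a count of 0 allows up to 0.0889 to 0.118 CPM (reads scaled to library size, here 3 counts of the library total), for counting error only. ILC3 markers (Il22, Il23r, Il7r, Thy1, Ccr6 and Il1r1) were all present. They summed to 19620 to 30760 CPM in wild type and 18170 to 23390 CPM in KO libraries. Most of each sum was Il22, with 15030 to 25510 and 13570 to 18950 CPM. Ccr6 had 72.8 to 156.5 CPM in wild type and 74.4 to 340 CPM in KO libraries. Zbtb46 had 8.02, 48.8, 88.9 and 26.6 CPM in wild type and 4.82, 0.532, 3.19 and 0.125 CPM in KO libraries, without overlap. Its log2 fold, KO over wild type, was -4.31 (SE 1.42), which edgeR's quasi-likelihood test did not call over all genes (adjusted p 0.885) and DESeq2 did (adjusted p 0.0115). Genes with a count numbered from 10668 in KO replicate 6 to 14410 in wild type replicate 2. Markers of other cells varied between libraries: epithelial markers summed to 1285 CPM in wild type replicate 2, stromal and endothelial markers to 772 and 407 CPM in wild type replicate 1 and KO replicate 7, and neutrophil and macrophage markers to 335 and 717 CPM in KO replicates 5 and 7. NK cell markers, with Eomes and Prf1 under 1 CPM throughout, summed to 36.9, 65.7, 94.5 and 246 CPM in wild type and 553, 177, 184 and 284 CPM in KO libraries. That 3 wild type libraries lay below every KO library was due to Ncr1. Ncr1 had 0.0391, 41.1, 67.4 and 198 CPM in wild type and 447, 148, 151.5 and 270 CPM in KO libraries. Klrb1c did not share this difference, with 36.8, 24.4, 27.1 and 48.2 against 46.2, 28.4, 32.1 and 13.7 CPM. Gzma was near 0 in all libraries but KO replicate 5 (59.4 CPM). T cell markers summed to 0.786 to 66.8 and 0.038 to 125 CPM, and B and plasma cell markers to 5.86 to 136 and 2.00 to 74.4 CPM, in wild type and KO libraries. Dendritic cell markers, the cells best known for Zbtb46, summed to 104 to 176 CPM in wild type and 145 to 294 CPM in KO libraries, with Flt3, Itgax and Cd209a under 1 CPM in all libraries. The part of such cells in the values below was not tested.

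The relatives closest to Zbtb46 in sequence were Zbtb10, Zbtb8a and Zbtb8b. Proteins were translated from the longest complete coding frame of each gene in GENCODE M21, and all 39 members had one. Zbtb46 has 600 residues and 2 matches to the zinc finger pattern (2 cysteines 2 residues apart, 12 residues, then 2 histidines 3 to 5 residues apart). Over the finger part Zbtb8b shared 67.3% of 49 aligned residues with Zbtb46, Zbtb10 62.3% of 53 and Zbtb8a 53.3% of 45. Against the first 140 residues of Zbtb46, which hold its BTB domain, identity was 57.8% for Zbtb10, 55.1% for Zbtb8a and 46.2% for Zbtb8b, where the median member had 34.9%. By alignment score the same 3 genes held the top 3 ranks in both parts, and each of them also has 2 finger matches, where members ranged from 1 to 14.

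The coding stretches of these paired fingers are shown because they are the part that reads DNA. They are given 5′ to 3′ along the coding strand from GENCODE M21 on GRCm38, with the codons of the zinc-binding cysteines and histidines in capitals.
Zbtb46: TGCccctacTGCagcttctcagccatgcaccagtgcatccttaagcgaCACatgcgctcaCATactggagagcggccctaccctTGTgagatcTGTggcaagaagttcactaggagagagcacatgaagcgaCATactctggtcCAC
Zbtb10: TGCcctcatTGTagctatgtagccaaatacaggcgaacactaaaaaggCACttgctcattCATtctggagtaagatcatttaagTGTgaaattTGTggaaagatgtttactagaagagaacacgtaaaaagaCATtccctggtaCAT
Zbtb8b: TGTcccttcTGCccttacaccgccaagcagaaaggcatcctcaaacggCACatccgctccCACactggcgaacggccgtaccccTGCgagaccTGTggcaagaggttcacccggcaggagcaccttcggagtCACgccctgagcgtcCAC
Zbtb8a: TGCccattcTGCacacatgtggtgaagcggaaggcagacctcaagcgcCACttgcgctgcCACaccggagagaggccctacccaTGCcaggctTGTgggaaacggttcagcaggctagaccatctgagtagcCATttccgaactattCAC

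In the genome these stretches lie on chromosome 2 from 181391463 to 181395590 (Zbtb46, minus strand), chromosome 3 from 9280323 to 9280739 (Zbtb10, plus strand), and chromosome 4 from 129427822 to 129428571 (Zbtb8b) and 129354499 to 129357848 (Zbtb8a), both on the minus strand. Each is split over 2 coding exons. The Zbtb46 and Zbtb10 stretches have the same length of 147 bases and are identical at 94 of them (63.9%). The Zbtb8a and Zbtb8b stretches are 150 bases long, since their second finger has 1 more residue between its histidines.

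Of these 3 closest relatives, CCR6+ ILC3s transcribed Zbtb10 alone at an appreciable level. Zbtb8b had 0 counts in all 8 libraries. Zbtb8a had 0 counts in 6 libraries, 3 counts in wild type replicate 2 and 70 counts (2.19 CPM) in KO replicate 8. Neither passed the filter on low counts, so neither was tested.

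Zbtb10, a repressor of GC-rich promoters that also binds variant telomeric repeats, had the highest mean CPM of the family. Its wild type libraries had 163, 58.8, 82.7 and 283 CPM, and its KO libraries 71.4, 55.9, 145 and 61.1 CPM. The groups overlapped, with wild type replicate 4 the highest library and KO replicate 6 the lowest. The fitted log2 fold, KO over wild type, was -0.82 (SE 0.542), and its 95% interval ran from 0.246-fold to 1.31-fold. A doubling of Zbtb10 in the absence of Zbtb46 therefore lay outside the interval, and under the 14 alternative settings that give one its upper end ranged from 1.06-fold to 1.89-fold. The log2 fold was -0.29 without wild type replicate 4.

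**Figure D1:**
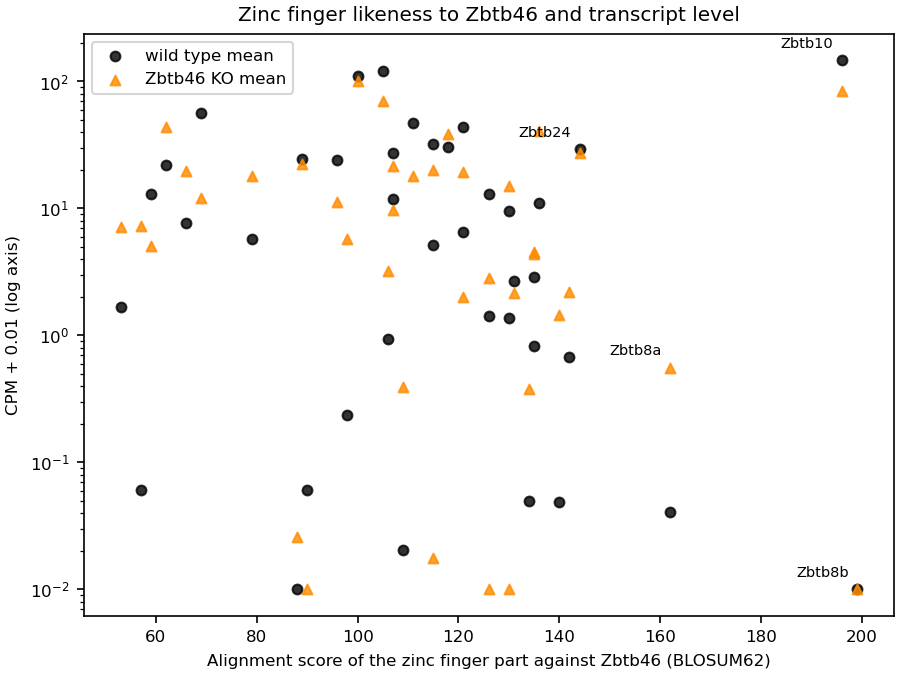
Transcript level of the 39 members (vertical log axis, CPM plus 0.01, group means over 4 libraries, circles wild type and triangles Zbtb46 KO) against the alignment score of each zinc finger part to that of Zbtb46 (horizontal axis, BLOSUM62 units). Of the 3 highest scores, Zbtb10 sits near 100 CPM while Zbtb8a stays below 1 CPM and Zbtb8b at 0.

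Across the whole family, 27 of 39 members had a wild type mean of at least 1 CPM and 30 had a KO mean of at least 1 CPM. Of these 24 reached it in both groups, 3 in wild type alone (Zbtb26, Zbtb34 and Zbtb37) and 6 in KO alone (Zbtb9, Zbtb14, Zbtb40, Zbtb42, Zbtb45 and Zbtb49), while 6 reached it in neither. Whether a member fell on one side in 1 group only rests on few libraries, as the values of Zbtb34 (5.40 CPM in wild type replicate 1, at most 1 count in every other library) and Zbtb14 (5.00 CPM in KO replicate 8, at most 0.782 CPM elsewhere) show. Over all 8 libraries 18 members had a mean of at least 10 CPM, and 12 had more than 3 counts in every library. At the other end Zbtb3, Zbtb8b and Zbtb32 never exceeded 3 counts.

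**Figure D2:**
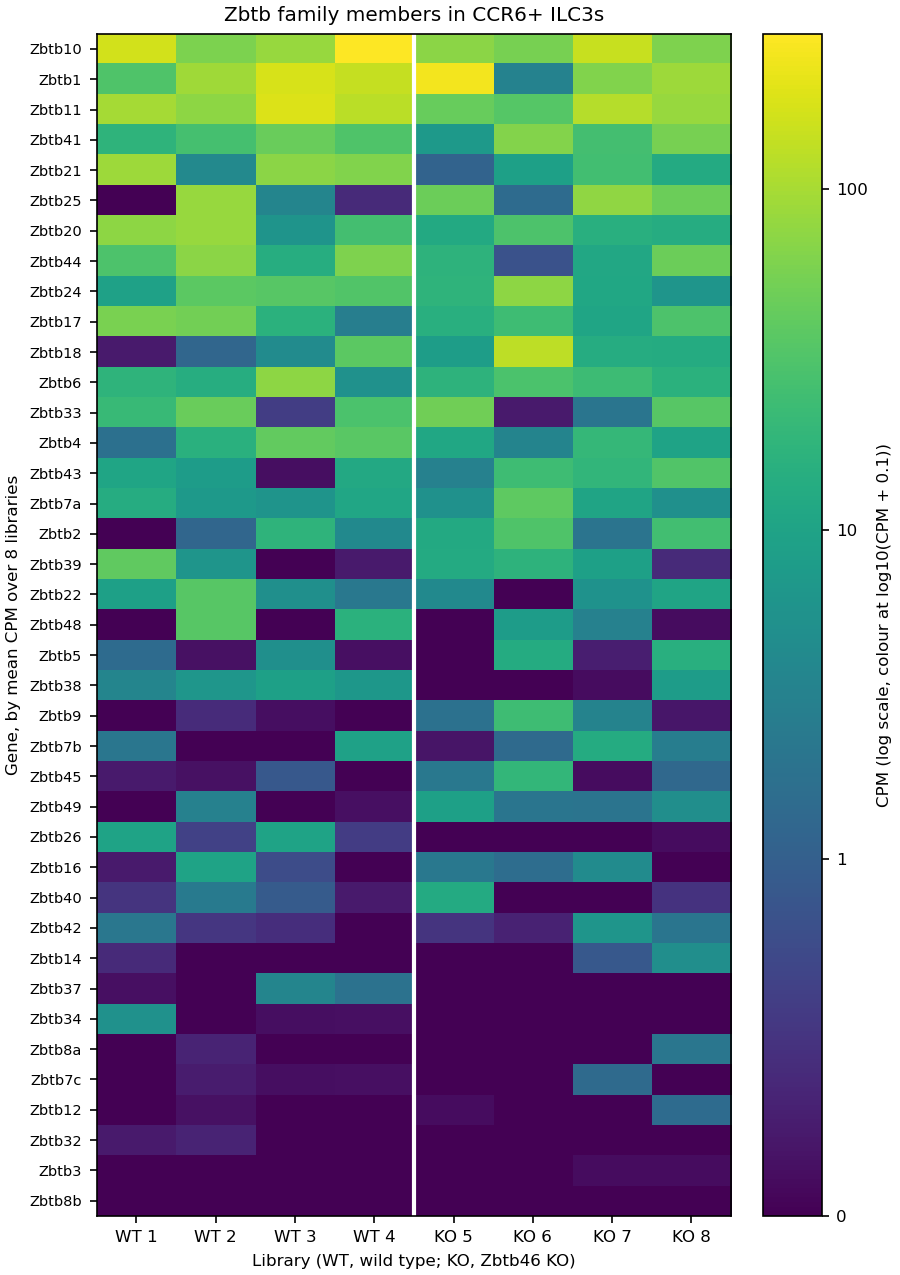
CPM of each of the 39 members (rows, ordered by mean over 8 libraries) in each library (columns, WT wild type 1 to 4, KO Zbtb46 KO 5 to 8), as colour on a log scale. Zbtb10, Zbtb1 and Zbtb11 fill the top rows, with Zbtb1 at 3.34 CPM in KO 6, and many lower rows switch between 0 and over 10 CPM from library to library.

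Levels of different genes were compared per kilobase of the longest GENCODE transcript, on the mean of all 8 libraries. On that scale Zbtb11 was highest at 19.3 CPM per kb, followed by Zbtb10 at 15.5, Zbtb25 at 12.1, Zbtb24 at 9.93 and Zbtb1 at 8.63. The place of Zbtb25 by mean differed between the groups, with a wide spread. At 8.06 ± 15.2 CPM per kb (SD, n = 4) in wild type it came after Zbtb24 (10.3), Zbtb21 (9.36), Zbtb17 (9.31) and Zbtb1. At 16.1 ± 11.5 CPM per kb in KO cells its mean stood above that of Zbtb11 (14.2 ± 7.71). Per kilobase of coding sequence the order over all libraries changed to Zbtb1 at 49.1, Zbtb10 at 44.6, Zbtb11 at 30.1 and Zbtb25 at 24.7 CPM per kb. For Zbtb1 the longest transcript has 12190 bases and the longest coding frame 2142. In wild type alone Zbtb10 (56.9 CPM per coding kb) stood above Zbtb1 (51.2). Zbtb46 itself had 8.11 CPM per kb of transcript in wild type, against 24.4 for Zbtb11 and 19.8 for Zbtb10 in the same libraries.

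By edgeR, the main test, no member differed between the groups past the threshold, while DESeq2 called 2 that did not pass edgeR's filter (Zbtb26 and Zbtb9, with values given further on). The filter on low counts kept 26 of the 39, and edgeR's quasi-likelihood test with Benjamini-Hochberg adjustment over all 8878 tested genes called 0 of them, where 0% of all genes were called. Each of the 26 had an adjusted p of 0.9999. No member had an unadjusted p under 0.05, which 4.1% of all tested genes had. Limma-voom with sample quality weights also called 0 members, with 2 (Zbtb38 and Zbtb49) at an unadjusted p under 0.05, beside 8.73% of all tested genes.

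Of the 26 tested members 10 had higher and 16 lower fitted values in KO cells, where 50.9% of all tested genes were higher. Their median log2 fold was -0.20 against 0.02 over all tested genes, and it ranged from -0.44 to 0.13 with 1 library left out, positive without wild type replicate 2 or 3 or KO replicate 8. Each library is a whole sorted population, in which fewer transcribing cells and less RNA per cell cannot be told apart.

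The precision was enough to bound a few members. For 4 of the 26 (Zbtb10, Zbtb11, Zbtb20 and Zbtb21) the 95% interval ended below a doubling, as it did for 21.5% of all tested genes. This held for Zbtb10 and Zbtb11 in all 14 alternatives. It was lost for Zbtb20 in 7 of them, with an upper end of up to 2.67-fold without wild type replicate 2, and for Zbtb21 in 2, with up to 2.64-fold without wild type replicate 1 and KO replicate 6. A halving lay outside the interval of 1 member, Zbtb45, beside 21.3% of all tested genes. For Zbtb45 this was lost in 7 of 13 alternatives, among them without wild type replicate 1, 2 or 4 (lower ends of 0.328-fold, 0.328-fold and 0.421-fold) or KO replicate 6 (0.324-fold). By contrast 12 of the 26 intervals included both a 4-fold rise and a 4-fold fall.

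**Figure D3:**
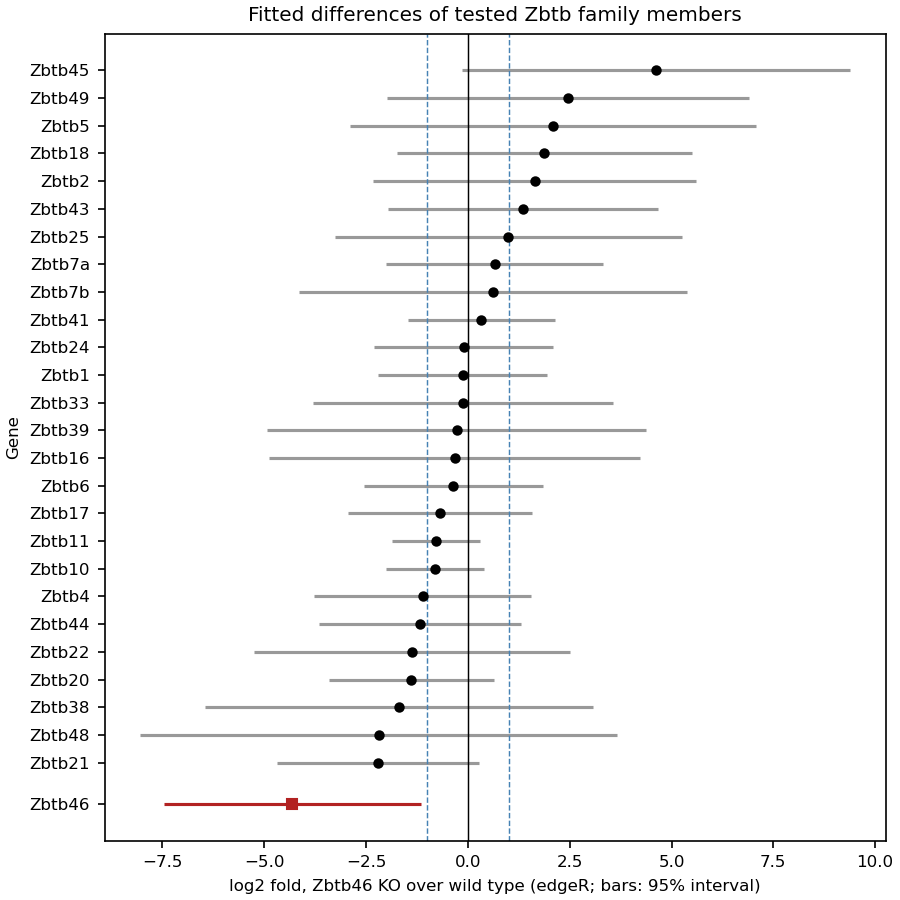
Fitted log2 fold, Zbtb46 KO over wild type, of the 26 tested members (circles) and of Zbtb46 (square), with 95% intervals from edgeR as bars. Dashed lines mark a doubling and a halving. The intervals of all 26 members include 0, and those of Zbtb10 and Zbtb11 are the narrowest.

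Among the 9 members known for lymphocyte fate and function, 6 had a mean of at least 10 CPM and 8 were tested, with 3 higher and 5 lower fitted values and none past the threshold. Zbtb1, which lymphocyte development requires, was the most abundant of them. It had 31.5, 91.5, 175 and 141 CPM in wild type and 248, 3.34, 63.4 and 87.8 CPM in KO libraries. Its highest and its lowest library were thus both KO libraries, and its log2 fold of -0.12 had an interval from 0.218-fold to 3.86-fold.

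Zbtb25, studied as a repressor in T cells, lies head to head with Zbtb1 on chromosome 12, and the RefSeq spans of these genes share 164 bases. Zbtb25 had 0, 83.4, 3.68 and 0.157 CPM in wild type and 47.4, 1.52, 76.8 and 48.1 CPM in KO libraries. It thus exceeded 10 CPM in 1 wild type and 3 KO libraries, while Zbtb1 exceeded 30 CPM in all libraries but KO replicate 6. The Zbtb25 log2 fold was 0.99 (SE 1.92). It depended on wild type replicate 2, without which it was 5.07 (adjusted p 0.896, edgeR), and it was 4.69 with limma-voom (adjusted p 0.618). No source used here says if reads were counted by strand, so those from the shared bases could belong to either gene.

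Zbtb24, mutated in a human immunodeficiency with unstable centromeres, had 9.43, 38.7, 36.3 and 32.7 CPM in wild type and 17.3, 74.0, 11.2 and 6.29 CPM in KO libraries. The group means were 29.3 ± 13.5 and 27.2 ± 31.6 CPM (SD, n = 4), and KO replicate 6 was the highest library. Zbtb17 (Miz-1), a partner of Myc that supports interleukin 7 responses in lymphoid progenitors, had 58.0, 52.6, 16.1 and 2.87 CPM in wild type and 14.8, 24.1, 10.7 and 30.9 CPM in KO libraries. Its KO values fell inside the wild type range.

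Zbtb20, needed for long-lived plasma cells and for repression of fetal liver genes, had 72.8, 82.4, 6.05 and 26.3 CPM in wild type and 12.3, 30.5, 14.9 and 13.8 CPM in KO libraries. Wild type replicates 1 and 2 lay above every KO library and replicate 3 below every one. The log2 fold was -1.39 (SE 0.911). The RefSeq span of Zbtb20 overlaps 9 other genes, among them Tigit, an inhibitory receptor gene of T and NK cells.

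Zbtb7a (LRF), which directs the B against T cell choice, stayed below 15 CPM in all libraries but KO replicate 6. It had 13.8, 7.12, 5.98 and 10.9 CPM in wild type and 5.54, 38.8, 10.2 and 5.29 CPM in KO libraries, and the KO mean of 14.9 ± 16.1 CPM rests on replicate 6. Without that library the log2 fold of 0.66 became -0.44. The hallmark lineage factors of the family were lower still.

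Zbtb7b (ThPOK) had 2.15, 0, 0 and 9.28 CPM in wild type and 0.0571, 1.44, 13.2 and 2.82 CPM in KO libraries. Zbtb16 (PLZF) had 0.0783, 10.1, 0.540 and 0 CPM in wild type and 2.31, 1.63, 4.60 and 0 CPM in KO libraries. Both genes were thus near 0 in some libraries of each group and reached 9 to 14 CPM at most. Zbtb16 was highest in wild type replicate 2, the library with the epithelial markers, and Zbtb25 (83.4 CPM) was also highest there. Zbtb49 had 3.23 CPM in that library and at most 0.0393 CPM in the other wild type libraries. Zbtb32, which restrains lymphocyte proliferation, had 2 and 3 counts in wild type replicates 1 and 2 and 0 counts in every other library.

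The members that bind methylated DNA were Zbtb33 (Kaiso), Zbtb4 and Zbtb38. All 3 were tested and had lower fitted values in KO cells, and none passed the threshold. Zbtb33 had 21, 46.5, 0.324 and 29.8 CPM in wild type and 51.1, 0.0760, 2.06 and 36 CPM in KO libraries, so that each group held libraries above 20 CPM and libraries near 0. Zbtb4 had 1.76, 15.4, 42.4 and 36.6 CPM in wild type and 11.4, 3.53, 19.7 and 9.95 CPM in KO libraries. Zbtb38 had 3.64 to 9.12 CPM in the 4 wild type libraries and 7.95 CPM in KO replicate 8, with 0, 0 and 1 count in KO replicates 5, 6 and 7.

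Of the members linked to telomeres, Zbtb10 was described above. Zbtb48 (TZAP), which trims long telomeres, had 35.6 and 16.1 CPM in wild type replicates 2 and 4, 8.09 and 3.19 CPM in KO replicates 6 and 7, and at most 1 count in the other 4 libraries. Zbtb40 reached 12.7 CPM in KO replicate 5 and stayed at or below 2.52 CPM elsewhere, and it was not tested.

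The 3 members of the p53 and p21 pathway, Zbtb2 and Zbtb5, which repress the p21 gene, and Zbtb49, which activates it, all had higher fitted values in KO cells without passing the threshold. Zbtb2 had 0, 1.28, 17.6 and 4.21 CPM in wild type and 12.6, 31.7, 2.03 and 25.6 CPM in KO libraries. Zbtb49 had 0, 3.23, 0 and 0.0393 CPM in wild type and 8.93, 2.13, 2.00 and 4.91 CPM in KO libraries. Zbtb49 was above 1 CPM in all 4 KO libraries and in 1 wild type library. Its log2 fold was 2.46 (SE 2.00), and it was among the 6 tested members with the smallest p. Without wild type replicate 2 the log2 fold was 8.02 (adjusted p 0.709, edgeR), without KO replicate 5 it was 1.90, and with limma-voom it was 5.18 (adjusted p 0.469).

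The remaining 21 members included 8 with a mean of at least 10 CPM and 10 that were tested, 4 with higher and 6 with lower fitted values. Zbtb11, studied in blood development and mitochondrial function, was present throughout. It had 98.4, 73.5, 184 and 124 CPM in wild type and 44.1, 34.3, 117 and 83.5 CPM in KO libraries. The groups overlapped by KO replicates 7 and 8, the log2 fold was -0.78 (SE 0.487), and the interval ran from 0.274-fold to 1.23-fold.

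Zbtb21 had 87.2, 4.18, 70.4 and 63.1 CPM in wild type and 1.17, 9.04, 25.6 and 12.9 CPM in KO libraries. Of the wild type libraries 3 lay above all KO libraries, while replicate 2 lay below all but KO replicate 5. Its log2 fold of -2.21 (SE 1.11) was the most negative among the tested members.

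Zbtb18 (RP58), best known as a repressor in developing neurons, had 0.0783, 1.28, 4.47 and 38.2 CPM in wild type and 8.13, 127, 13.6 and 13.2 CPM in KO libraries. Each group mean rested on 1 high library. The log2 fold was 1.88, it was 0.08 without KO replicate 6 and 4.38 without wild type replicate 4. Zbtb45, a glial regulator, had 2, 1, 22 and 0 counts in wild type and 82, 506, 1 and 43 counts in KO libraries. It had the highest log2 fold of the tested members (4.62, SE 2.14), and KO replicate 6 held most of its reads, at 19.2 CPM. The log2 fold was 2.42 without that library and 7.01 without wild type replicate 3.

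The other members with a mean of at least 10 CPM were Zbtb41, Zbtb44, Zbtb6, Zbtb43 and Zbtb39. Zbtb41 had 17.3 to 45.5 CPM in wild type and 7.36 to 64.4 CPM in KO libraries. Zbtb44 had 14.2 to 71.0 CPM in wild type and 0.646 to 48.0 CPM in KO libraries. Zbtb6 had 5.50 to 72.7 CPM in wild type and 15.7 to 30.0 CPM in KO libraries. The ranges of the groups overlapped in all 3. Zbtb43 had 8.07 to 12 CPM in 3 wild type libraries and 1 count in replicate 3, against 3.17 to 32.7 CPM in KO libraries. Zbtb39 had at most 5 counts in 3 libraries (wild type 3 and 4, KO 8) and 40.8 CPM in wild type replicate 1.

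A pair of members outside the rule for named genes was chosen after the values were seen, because DESeq2 called them. DESeq2 called 2 of the 30 members to which it gave an adjusted p, beside 3.26% of all genes (2.09% higher and 1.17% lower in KO). Zbtb26 was lower in KO cells (adjusted p 0.000178) and Zbtb9 higher (adjusted p 0.00607). Neither passed edgeR's filter, and with edgeR run without that filter 0 members were called.

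Zbtb26 was the only member whose groups did not overlap, beside 2.66% of all genes with a count. Among the 26 tested members there were 0 without overlap, beside 4.36% of all tested genes. Zbtb26 had 257, 9, 275 and 8 counts in wild type, which is 10.1, 0.372, 9.91 and 0.314 CPM, and 0, 0, 0 and 1 count in KO libraries. The scaled ratio of the summed counts, 549 against 1, was 668-fold higher in wild type, with a 95% counting interval from 119 to 26440 that covers counting error only. Zbtb26 lies 1248 bases from Zbtb6 on the same strand of chromosome 2, and the Zbtb6 groups overlapped. Zbtb9 had 0, 4, 1 and 0 counts in wild type and 64, 621, 108 and 2 counts in KO libraries, so that KO replicate 8 lay among the wild type values. Most of the Zbtb9 reads came from KO replicate 6, at 23.6 CPM.

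The promoter windows of these genes, 250 bases before to 50 bases after the RefSeq start on GRCm38.p6, are shown because DESeq2 called these members in opposite directions. Capitals mark CCAAT on either strand. Zbtb26 is at chr2:37443123-37443422 on the minus strand and Zbtb9 at chr17:26972929-26973228 on the plus strand.
Zbtb26: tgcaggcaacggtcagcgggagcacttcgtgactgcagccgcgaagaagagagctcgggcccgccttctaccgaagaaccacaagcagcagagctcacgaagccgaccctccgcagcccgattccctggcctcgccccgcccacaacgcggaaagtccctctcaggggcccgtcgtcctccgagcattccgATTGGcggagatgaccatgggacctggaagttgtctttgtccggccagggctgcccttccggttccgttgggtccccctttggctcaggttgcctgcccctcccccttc
Zbtb9: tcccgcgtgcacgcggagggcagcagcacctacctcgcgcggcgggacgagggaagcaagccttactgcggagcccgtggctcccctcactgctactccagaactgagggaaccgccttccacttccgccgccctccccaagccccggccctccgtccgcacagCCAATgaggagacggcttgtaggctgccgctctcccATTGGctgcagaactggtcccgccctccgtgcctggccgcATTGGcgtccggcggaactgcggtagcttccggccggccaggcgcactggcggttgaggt

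The windows were 65.3% and 69.7% G or C and held 1 and 3 copies of CCAAT, the box bound by NF-Y. That motif was in 37.9% of 27025 promoter windows and in 13 of the 34 member windows at hand. The E-box CACGTG, the cyclic AMP response core TGACGT and the Kaiso motif TCCTGCNA were searched on both strands too and were in neither window. They were in 5, 5 and 1 of the 34 member windows, and in 7.24%, 7.64% and 4.91% of all windows.

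Summed over the 39 members, the family had a lower CPM, which is scaled to library size, in KO than in wild type libraries. The sums were 709, 778, 812 and 940 CPM in wild type and 635.5, 639, 642 and 640.2 CPM in KO libraries, with means of 810 ± 96.9 and 639 ± 2.67 CPM (SD, n = 4). All 4 KO libraries lay below all 4 wild type ones, also under the other scalings (722 to 889 against 629 to 701 CPM without scaling factors). The difference of -170.6 CPM ranged from -204.2 to -127.2 CPM with 1 library left out. The sum is dominated by few genes: without Zbtb1, Zbtb10 and Zbtb11 it ran from 371 to 554 CPM in wild type and from 272 to 546 CPM in KO libraries, and the groups overlapped. The 3 genes made up 14.6% of the sum in KO replicate 6 and 28.8% to 58.4% elsewhere. The members were chosen with results of these data known, so the sums are given without a test.

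Zbtb46 was a small part of the family's reads even in wild type, at 1.12%, 5.90%, 9.87% and 2.75% of all Zbtb counts in replicates 1 to 4. It made up 0.0195% to 0.753% in KO libraries. The mean of Zbtb46 was 40.9 CPM lower in KO cells. The members with the largest gains in mean CPM were Zbtb18 (29.4 CPM) and Zbtb25 (21.6 CPM), neither past the threshold. Per kb of transcript, the wild type and KO means were 8.11 and 0.408 CPM for Zbtb46. They were 8.06 and 16.05 for Zbtb25, and 2.23 and 8.18 for Zbtb18. On that scale the mean of Zbtb25 rose more than that of Zbtb18, with Zbtb25 SDs of 15.2 in wild type and 11.5 CPM per kb in KO libraries. Per kb of coding sequence the order was the reverse. There the wild type mean and the mean of all libraries were 6.90 and 16.1 CPM for Zbtb18, and 16.5 and 24.7 CPM for Zbtb25. The Zbtb18 gain rested on 1 library, since it was 0.609 CPM without KO replicate 6. With 1 library left out, the Zbtb25 gain ran from 10.5 CPM without KO replicate 7 to 42.2 CPM without wild type replicate 2. The number of members at 1 CPM or more in a library was 20 to 24 in wild type and 23 to 27 in KO libraries, which overlapped.

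**Figure D4:**
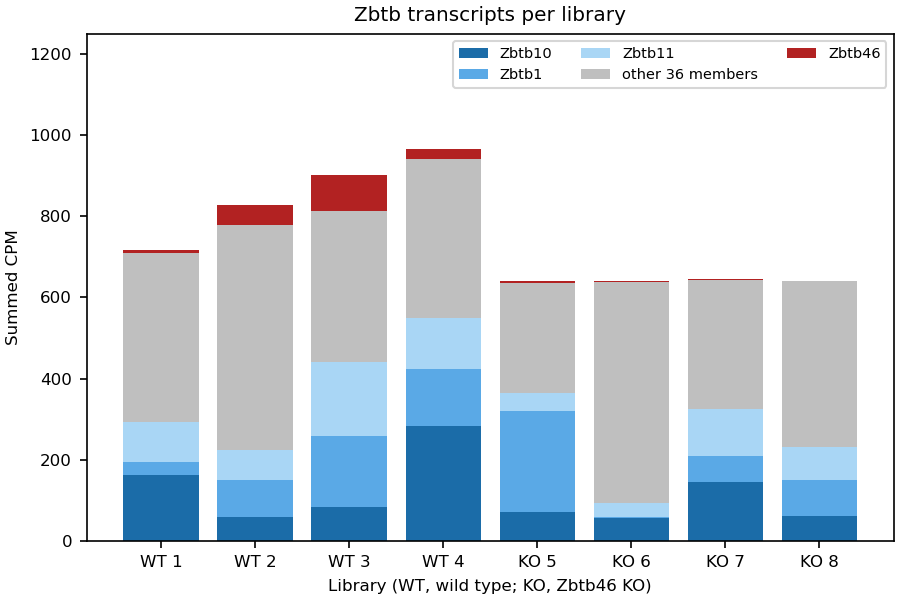
Summed CPM of Zbtb transcripts in each library (bars, 1 per mouse, vertical axis from 0), split into Zbtb10, Zbtb1, Zbtb11, the other 36 members and Zbtb46. Without the Zbtb46 segment the wild type bars reach 709 to 940 CPM and the KO bars 635.5 to 642 CPM.

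Members varied strongly between mice of one group, about as much as other genes of their level. Among 12 members with a mean of 1 to 10 CPM the median coefficient of variation within groups was 141%, against 147% over 3979 genes of that level. From 10 to 50 CPM it was 74.0% over 15 members and 85.4% over 3681 genes, and from 50 to 150 CPM it was 59.5% over 3 members and 48.3% over 1921 genes. In all, 15 members had at most 3 counts in at least 1 library and at least 10 CPM in another. Of the members from 10 to 50 CPM 6 of 15 (40%) did so, beside 48.2% of all genes at that level. The libraries were made with a kit for very small RNA inputs, and the number of cells behind each is unknown.

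**Figure D5:**
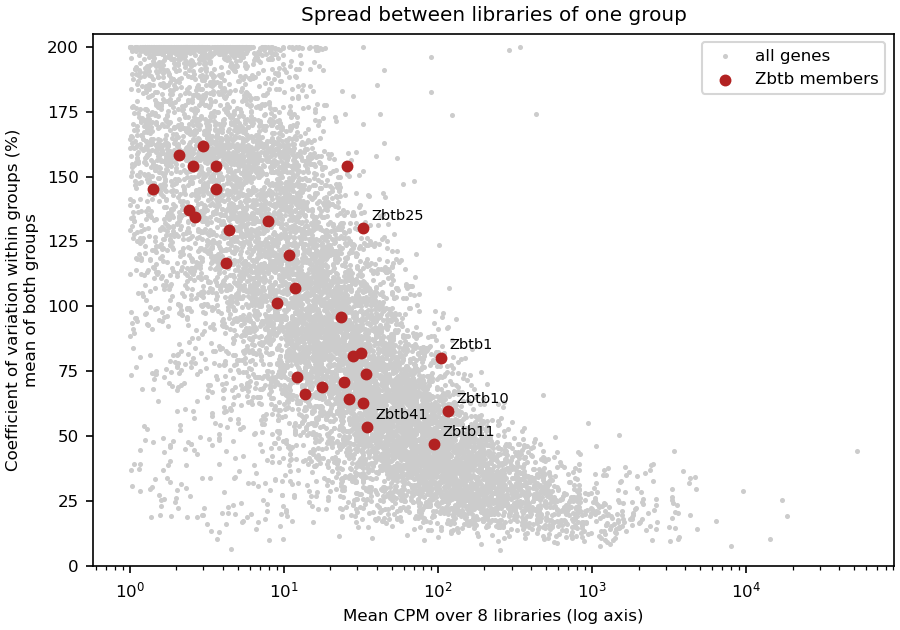
Coefficient of variation within groups (vertical axis, percent, mean of both groups) against mean CPM over 8 libraries (horizontal log axis) for all genes averaging 1 CPM or more (grey) and the 30 Zbtb members among them (red). Members lie within the cloud of all genes, falling from a median of 141% at 1 to 10 CPM to 59.5% at 50 to 150 CPM.

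Family members that carry other symbols and the partners of the BTB domain were counted in the same way. Of 8 BTB zinc finger genes with other symbols, 4 were tested, 1 with a higher and 3 with lower fitted values. By edgeR 0 were called, beside 0% of all tested genes, and 0 had an unadjusted p under 0.05, beside 4.1%. Zfp131 had 88.6, 231, 220 and 228 CPM in wild type and 129, 162, 46.8 and 128 CPM in KO libraries, and Mynn 74.6 ± 67.5 against 114 ± 111 CPM. Bcl6, the germinal centre and follicular helper T cell repressor, stayed at or below 2.86 CPM. DESeq2 called 1 of the 8, Patz1, beside 3.26% of all genes. Patz1 had 717, 584, 36 and 0 counts in wild type and 1 count in KO replicate 6 with 0 in the other KO libraries. It did not pass edgeR's filter.

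The 8 corepressor and Cul3 genes were all tested, 5 with higher and 3 with lower fitted values. Among them edgeR called 0, beside 0% of all tested genes, and DESeq2 called 0, beside 3.26% of all genes. By edgeR 0 had an unadjusted p under 0.05, beside 4.1% of all tested genes. Ncor1, the corepressor that BTB domains recruit, had 458, 669, 562 and 563 CPM in wild type and 429, 536, 463 and 502 CPM in KO libraries. Its log2 fold was -0.22 (SE 0.193), and its interval ran from 0.637-fold to 1.15-fold. Cul3 had 255 ± 97.9 against 207 ± 80.6 CPM. Sin3a, the scaffold of a histone deacetylase complex, had 58.0, 3.35, 13.1 and 3.65 CPM in wild type and 75.8, 200, 23.6 and 29.2 CPM in KO libraries, with a log2 fold of 2.07 and an SE of 1.09.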

How the data were processed

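The authors deposited 1 table of raw counts, whole numbers for each gene by Entrez ID, without normalization as its values show. Libraries were made with a Clontech SMARTer Ultra Low Input kit, per the labels' protocols. CASAVA 1.8.2, STAR 2.3.0 and the build mm10 were used, per the submitters' processing notes. No source used here names the counting tool, its strand setting or its treatment of reads with several matches. RefSeq symbols of GRCm38.p6 were matched to 25275 of 27179 rows, and the rest held 0.303% of counts.

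The fit used edgeR 4.0.16 in R 4.3.3 (TMM factors, filterByExpr by group, quasi-likelihood F test, Benjamini-Hochberg adjustment over all 8878 tested genes, threshold 0.05) on all 8 libraries with group as the only term. On simulated data this fit recovered 0% of 63 genes changed 2-fold, 14.5% of 62 changed 4-fold and 18.6% of 59 changed 8-fold. A count of 0 therefore does not show that members did not change. SEs and 95% intervals were derived from F. CPM are TMM-scaled. Alternatives were other scalings and filters, DESeq2 1.42.0, limma 3.58.1 (voom with quality weights), each library left out, and both wild type 1 and KO 6 left out. Each library came from a separate mouse, per the series' design text.

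The rule for named members was a mean of at least 10 CPM, a role in lymphocytes (Zbtb33 included) or 1 of the 6 smallest p among tested members. Other members were also named, as close relatives of Zbtb46, for their roles, as examples of low counts, or because a second test picked them out. Leaving out libraries for the count of members present, the lower interval end of Zbtb45, gains in mean CPM, and all settings of the summed CPM, were added after seeing the data. The members, lists and tests were chosen with earlier results of these data known. Proteins of the planned RefSeq table were not used here, and identities come from GENCODE M21 coding frames. RefSeq promoter windows were at hand for 34 of 39 members.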

Additional observations from a re-analysis of the deposited data

Results flagged for a closer look

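Within groups of 4, 1 library lay far from the other 3 in 11 of 47 groups examined. The rule was a gap to the nearest, over the whole range, above Dixon's 95% critical value. Chance would give about 2.35 such groups if values were normally distributed. The rule was applied to CPM without a log, and all 11 flags were the highest library of their group. Members from 1 to 10 CPM had a median coefficient of variation within groups of 141%. The figure of 2.35 therefore does not apply, and no excess over chance can be read from the 11 flags. In wild type the flags were Zbtb16 (10.1 CPM), Zbtb25 (83.4 CPM) and Zbtb49 (3.23 CPM) in replicate 2. The other wild type flags were Zbtb18 in replicate 4 (38.2 CPM), Zbtb39 in replicate 1 (40.8 CPM) and Zbtb45 in replicate 3 (0.793 CPM). In KO all 5 were in replicate 6, with Zbtb18 at 127 CPM, Zbtb24 at 74 CPM, Zbtb7a at 38.8 CPM, Zbtb20 at 30.5 CPM and Zbtb45 at 19.2 CPM, each the highest of its group. The groups share libraries, so the flags are not independent.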

How the results depend on the processing

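Under each edgeR and limma-voom alternative 0 members were called. DESeq2 called 2 members and 1 BTB zinc finger gene with another symbol, and it called Zbtb46 (log2 fold -4.30). Beside 10 higher and 16 lower fitted values, there were 18 higher and 20 lower without a filter and with DESeq2, 6 and 14 with at least 5 CPM in 4 libraries, 13 and 13 with limma-voom, and 15 and 13 without wild type 2, wild type 3 or KO 8. Members present numbered 17 and 17 at a mean of 10 CPM, and 14 in wild type and 16 in KO at 1 CPM in all 4 libraries. Directions turned for Zbtb1 without scaling factors (0.004). They turned with limma-voom for Zbtb16 (0.293), Zbtb17 (0.075), Zbtb33 (0.144), Zbtb39 (2.079), Zbtb41 (-0.230), Zbtb6 (0.089) and Zbtb7a (-0.148). Without wild type 1 and KO 6 they turned for Zbtb18 (-0.329), Zbtb33 (0.237), Zbtb39 (1.798), Zbtb41 (-0.224) and Zbtb7a (-0.190). With 1 library left out, log2 folds ran from -1.088 to 0.284 for Zbtb1, -1.007 to 3.338 for Zbtb16, -1.337 to 0.224 for Zbtb24, -0.914 to 0.385 for Zbtb33, -0.699 to 2.191 for Zbtb39, -0.032 to 0.68 for Zbtb41, -0.697 to 0.804 for Zbtb6, -0.44 to 0.944 for Zbtb7a and -0.976 to 2.599 for Zbtb7b, and the median over tested members from -0.4405 to 0.1262. The cause was not tested. No paired analysis was possible because the replicate numbers 1 to 8 are not shared between the groups.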
